A study of Homo sapiens with 2 samples.

Results

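Cholesterol is built from acetyl-CoA by a chain of enzymes, and 8 genes of this system are described here in RNA that coprecipitated with IMP1 in T47D cells. They are HMGCS1, IDI1, FDPS, FDFT1, SQLE, LSS, DHCR7 and INSIG1, taken by gene name from a table of 18781 genes, and every one of the 8 was found there once. T47D is a human cell line of luminal breast cancer, listed as wild type and grown in medium with fetal bovine serum. IMP1 is an RNA-binding protein of the IGF2BP family that binds, stores and transports mRNAs. In RNA immunoprecipitation (RIP), lysate is incubated with antibody-coated beads and the RNA left on the beads after washing is extracted and sequenced. The data hold 2 libraries, 1 from the precipitate of an antibody to IMP1 and 1 from the precipitate of normal IgG, the control for RNA that sticks without IMP1. Each condition has 1 library and no input RNA was analysed here, so no difference below has a replicate check and no test was run between conditions.

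The early enzymes of the chain work mostly in the cytosol and make farnesyl diphosphate, which also feeds other isoprenoids. From squalene on, the enzymes sit in the membrane of the endoplasmic reticulum. When membrane sterol is low, the factors SREBP1 and SREBP2 are carried to the Golgi by SCAP, cut there and switch on most of these genes. When sterol is high, INSIG proteins hold SCAP in the endoplasmic reticulum, and INSIG1 is itself a target of SREBP. In cultured cells the lipoprotein sterol of the serum feeds into this control.

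The choice of genes did not use promoter letters, but the letters searched here were picked after the promoter sequences had been read. Promoter windows of RefSeq (GRCh38.p14, 250 bases before to 50 bases after a gene's start) were at hand for 6 of the 8 genes, all but FDFT1 and SQLE. All 6 hold the letters CCAAT on either strand (ATTGG when read in reverse), the box bound by NF-Y, a factor known to act beside SREBP. Over all 27305 genes with such windows, 39.7% hold it in at least 1 window. A gene can have several starts, and 7 of the 10 windows of the 6 genes hold the box, beside 34.6% of all 35116 windows. Of 12 other pathway enzymes with windows, 9 hold it, all but PMVK, CYP51A1 and LBR. The windows of the 6 genes also hold GGGCGG or its reverse CCGCCC, the GC box of SP1, which 48.3% of all genes hold. It is in 9 of their 10 windows, beside 45.0% of all windows. None of the 6 holds CACCCCAC or its reverse GTGGGGTG, the core of a sterol regulatory element, and 3.39% of all genes do. None of the 12 other enzymes holds it either. At so low a share, no match among so few genes says little, and other forms of the element were not searched. These motifs were chosen after the windows had been read, a match is only a run of letters, and RIP does not measure promoters. Below, 30 bases around the CCAAT box that lies nearest before a start are printed for each of the 6 genes, because all 6 hold it, with the box in capitals.
HMGCS1 (chr5:43313495-43313524, minus strand): ctaccggccgcgATTGGctgtgggagccac
IDI1 (chr10:1048956-1048985, minus strand): ctggcgcgagcgATTGGctgcgcggcccgg
FDPS (chr1:155308803-155308832, plus strand): tcccgcgggcacATTGGgagttgtagtcta
LSS (chr21:46228907-46228936, minus strand): cgcggcgctctgATTGGttgcgtgggcgtc
DHCR7 (chr11:71448424-71448453, minus strand): ggtccgcctccgATTGGcaggcaatcgctg
INSIG1 (chr7:155297696-155297725, plus strand): cgccggcctcccATTGGttgcggccgcctc
In each of these windows the box is in the reverse reading. Its first base lies 48 bases before the start in DHCR7, 51 in FDPS, 87 in IDI1, 100 in HMGCS1, 150 in LSS and 170 in INSIG1.

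Values are in FPKM, the fragments of a gene scaled by transcript length and by library size, so that levels of different genes can be set side by side within a library. A value above 0 was given for 17579 genes with IMP1 and for 11511 genes with IgG. The FPKM values summed to 353885 with IMP1 and to 1298363 with IgG. Without read counts, depth is unknown for both. For the cell line label, 13 of the 14 listed markers of luminal breast epithelium were at 1 FPKM or more in both libraries, as were 6909 of all 18781 genes. TFF1 was listed at 0 with IgG. The 14 markers summed to 1278 FPKM with IMP1 and to 597 FPKM with IgG, while ESR1 had 9.60 and 9.04 FPKM. Of the 14, 8 were at least 2-fold higher with IMP1 and 1 at least 2-fold lower, beside 39.9% and 29.9% of all genes. Their median log2 ratio was 1.19, beside 0.40 over all genes. Markers of mesenchymal cells stood apart between the libraries. Their 15 genes summed to 5.91 FPKM with IMP1 and to 241 FPKM with IgG, 11 were at 1 FPKM or more with IgG against 2 with IMP1, and COL1A2, LUM, DCN, SPARC, ZEB2 and PDGFRB were listed at 0 with IMP1. Of the blood markers 3 of 10 had a row and summed to 1.12 and 4.88 FPKM, and of the liver markers 3 of 8 had a row and summed to 78.2 and 47.6 FPKM, nearly all of it SERPINA1. The part of these RNAs in the results below was not tested. The values are of RNA left on the beads, not of the total RNA of the cells. In such bulk RNA, fewer cells that carry a transcript and less of it per cell cannot be told apart.

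The 8 mRNAs did not move as a block between the precipitates. DHCR7 was the one measured in both that was more than 2-fold higher with IMP1, HMGCS1 and INSIG1 were more than 2-fold lower, and IDI1, SQLE, FDFT1 and FDPS stayed within 2-fold. LSS had a value only with IMP1. With 0.1 FPKM added to both values, 2 of the 8 genes (DHCR7 and LSS) were at least 2-fold higher, where 39.9% of all genes were, LSS being counted only through the added 0.1. Another 2 of the 8 (HMGCS1 and INSIG1) were at least 2-fold lower, beside 29.9% of all genes. The median log2 ratio of the 8 genes was -0.23, beside 0.40 over all genes. All but LSS had at least 1 FPKM in both libraries. Among the 6909 genes of that kind, 11.5% were at least 2-fold higher and 44.0% at least 2-fold lower, with a median log2 ratio of -0.78, and for the 7 genes the counts were 1 and 2 with a median of -0.36.

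The first of the early enzymes is HMGCS1, the cytosolic HMG-CoA synthase that commits acetyl units to the mevalonate route. HMGCS1 (ENSG00000112972) had 3.57 FPKM with IMP1 against 20.5 FPKM with IgG. This is 5.73-fold lower with IMP1, a log2 ratio of -2.49, and as deposited the largest difference among the 7 genes measured in both libraries, whereas DHCR7 differed more under each of the 3 other scales described below. Its locus in the deposited table is on chromosome 5 from 43287703 to 43313614 (hg19).

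IDI1 isomerises isopentenyl diphosphate, the C5 unit from which all later intermediates are joined. IDI1 (ENSG00000067064) had 13.9 FPKM with IMP1 against 25.2 FPKM with IgG (log2 ratio -0.85). The deposited table gives it the same locus as GTPBP4 and IDI2, on chromosome 10 from 1034338 to 1095110 (hg19), so that reads of overlapping transcripts could be shared between them. GTPBP4, a nucleolar GTPase, had 6.18 and 36.6 FPKM, a log2 ratio of -2.55. IDI2, the muscle isozyme, had 0.213 FPKM with IMP1 and was listed at 0 with IgG.

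FDPS joins C5 units into farnesyl diphosphate and is the target of bisphosphonate drugs. FDPS (ENSG00000160752) had 21.0 FPKM with IMP1 against 13.5 FPKM with IgG (log2 ratio 0.63). It was the early enzyme of the 3 with the higher value in the IMP1 library. Its locus on chromosome 1 from 155278539 to 155300905 (hg19) is shared in the table with RUSC1 (log2 ratio 1.18) and with RUSC1-AS1, which had 1.29 FPKM with IMP1 and was listed at 0 with IgG. Whether the counting behind the FPKM values used strand is not given in the sources used here.

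FDFT1, squalene synthase, takes farnesyl diphosphate into the sterol branch. FDFT1 (ENSG00000079459, chromosome 8 from 11653082 to 11696818, hg19) had 33.5 FPKM with IMP1 against 36.0 FPKM with IgG (log2 ratio -0.11), the closest pair among the 8 genes as deposited but not under the other scales. SQLE, squalene epoxidase, is the oxygen-requiring step that follows and a rate-limiting enzyme of the late pathway. SQLE (ENSG00000104549, chromosome 8 from 126010739 to 126034525, hg19) had 20.7 and 26.6 FPKM, a log2 ratio of -0.36. These consecutive enzymes kept nearly the same proportion, with 0.620 FPKM of SQLE per FPKM of FDFT1 with IMP1 and 0.739 with IgG.

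LSS, lanosterol synthase, closes the epoxide into the first sterol. LSS (ENSG00000160285, chromosome 21 from 47604993 to 47648738, hg19) had 3.42 FPKM with IMP1 and was listed at 0 with IgG, so no fold is given. Such a value is common at this level. Of the 2927 other genes whose IMP1 value was within 1.5-fold of that of LSS, 22.3% were listed at 0 with IgG too.

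DHCR7 reduces 7-dehydrocholesterol to cholesterol, the last step of 1 arm of the pathway. DHCR7 (ENSG00000172893) had 44.9 FPKM with IMP1 against 15.8 FPKM with IgG, which is 2.85-fold higher and a log2 ratio of 1.51. It shares its locus in the table, chromosome 11 from 71139239 to 71163914 (hg19), with the clone-named transcript RP11-660L16.2, which went the other way with 1.23 and 6.68 FPKM. DHCR7 had the highest value of the 8 genes with IMP1 and the third lowest with IgG.

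INSIG1 is not an enzyme but the sterol-sensing anchor of SCAP. INSIG1 (ENSG00000186480, chromosome 7 from 155089486 to 155101945, hg19) had 11.7 FPKM with IMP1 against 26.2 FPKM with IgG, 2.24-fold lower and a log2 ratio of -1.16. Its paralog INSIG2, which is not induced by SREBP, had 2.59 FPKM with IMP1 and was listed at 0 with IgG, as were 27.0% of the 3059 other genes within 1.5-fold of that value.

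**Figure D1:**
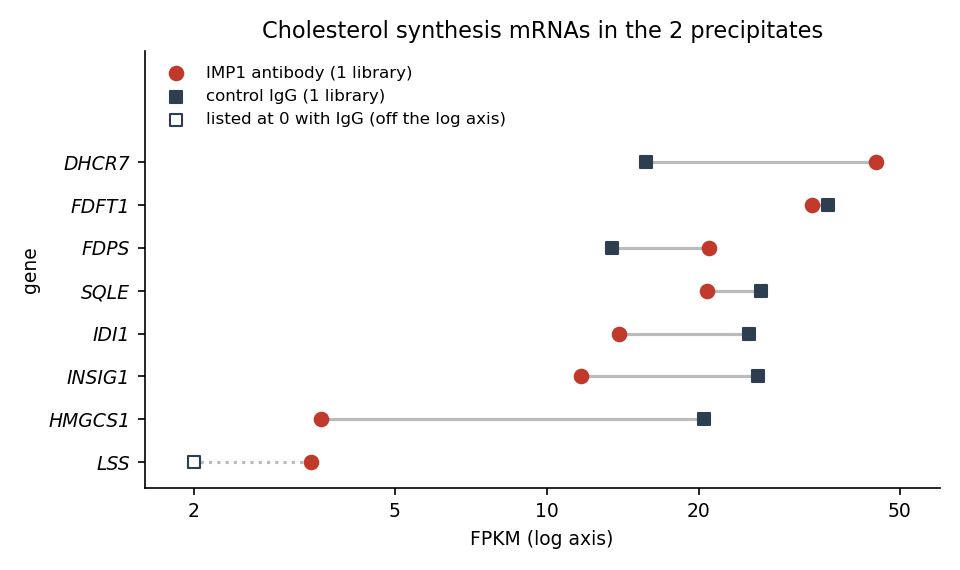
FPKM (log axis) of the 8 genes in the IMP1 library (circles) and the IgG library (squares), 1 library each. DHCR7 runs from 15.8 with IgG to 44.9 with IMP1 and HMGCS1 from 20.5 down to 3.57, while LSS, listed at 0 with IgG, has an open square placed at the left edge because 0 has no place on a log axis.

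The order of the 8 levels was not the same in the precipitates. With IMP1 it ran from DHCR7 through FDFT1, FDPS, SQLE, IDI1, INSIG1 and HMGCS1 to LSS. With IgG it ran from FDFT1 through SQLE, INSIG1, IDI1, HMGCS1, DHCR7 and FDPS to LSS. FDPS and SQLE (21.0 and 20.7 FPKM) were nearly level with IMP1, as were SQLE and INSIG1 (26.6 and 26.2 FPKM) with IgG, and with 1 library each it cannot be said which neighbours differ. Over the 7 genes above 0 in both, the highest level was 12.6 times the lowest with IMP1 and 2.67 times the lowest with IgG. Spearman's rho between the libraries over the 8 genes was 0.29, a description over genes of the same 2 libraries and without a p-value.

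Ratios between genes of the same library do not depend on how the libraries are scaled against each other. DHCR7 stood at 12.6 times the level of HMGCS1 in the IMP1 library and at 0.768 times in the IgG library, a 16.4-fold difference. Against INSIG1 it stood at 3.84 times with IMP1 and 0.600 times with IgG. FDPS, which follows HMGCS1 in the chain, had 5.87 times the level of HMGCS1 with IMP1 and 0.658 times with IgG.

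**Figure D2:**
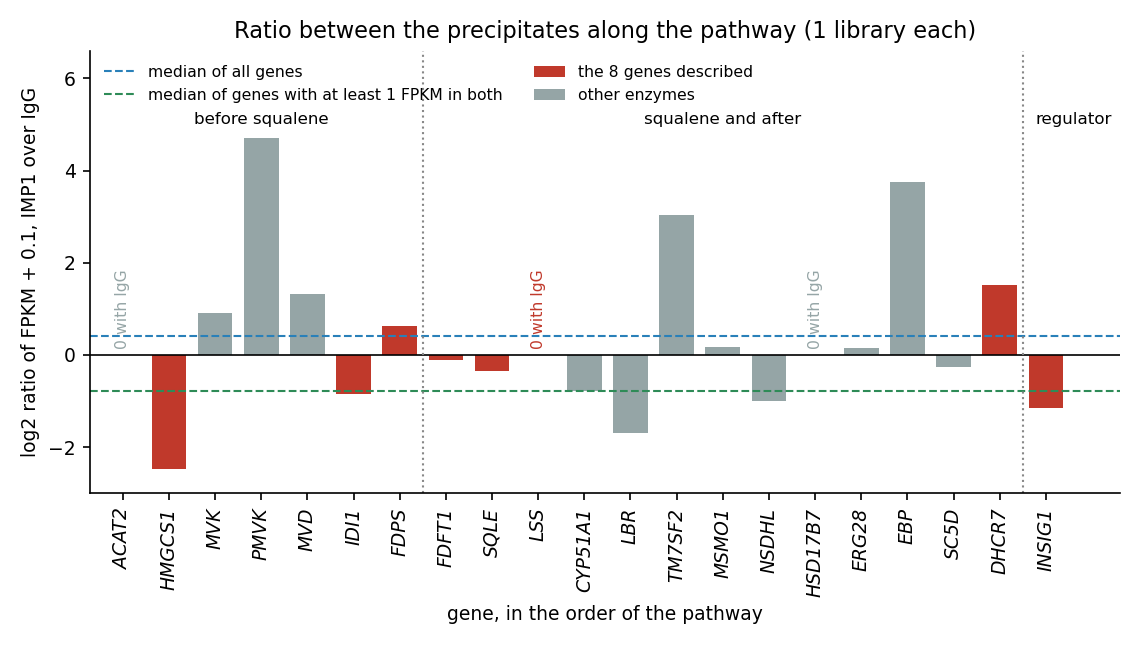
Log2 ratio of FPKM + 0.1, IMP1 over IgG, for the 8 genes (red) and 13 other enzymes of the pathway (grey) in pathway order. Bars reach from -2.49 for HMGCS1 to 4.70 for PMVK, LSS, ACAT2 and HSD17B7 are marked because they were listed at 0 with IgG, and dashed lines show the medians of 0.40 and -0.78.

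The other 15 enzymes, listed to complete the pathway, had a higher median log2 ratio than the 8 genes. In this list 7 of 15 were at least 2-fold higher with IMP1, where 39.9% of all genes were. Another 2 of 15 were at least 2-fold lower, beside 29.9% of all genes. The median log2 ratio of the 15 was 0.91, beside 0.40 over all genes. Of the 15, 12 had at least 1 FPKM in both libraries, with a median of 0.17, beside -0.78 over all such genes. Among the 12, 4 were at least 2-fold higher and 2 lower, beside 11.5% and 44.0% of all such genes. The FPKM values of the 15 summed to 361 with IMP1 and 155 with IgG, while those of the 8 genes summed to 153 and 164.

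Before squalene, the kinases and the decarboxylase of mevalonate had higher values with IMP1. MVK, mevalonate kinase, had 7.57 FPKM with IMP1 against 3.98 FPKM with IgG (log2 ratio 0.91). PMVK, phosphomevalonate kinase, had 9.88 and 0.283 FPKM, a log2 ratio of 4.70 that rests on a low IgG value. MVD, the decarboxylase that delivers isopentenyl diphosphate to IDI1, had 14.2 and 5.67 FPKM, a log2 ratio of 1.31. ACAT2, the cytosolic thiolase ahead of HMGCS1, had 6.85 FPKM with IMP1 and was listed at 0 with IgG, as were 14.1% of the 2092 other genes near its IMP1 level. Its mitochondrial relative ACAT1 had 19.0 and 22.7 FPKM, a log2 ratio of -0.25.

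After lanosterol, TM7SF2 and EBP resembled DHCR7. TM7SF2, a sterol C14 reductase, had 71.2 FPKM with IMP1 against 8.55 FPKM with IgG (log2 ratio 3.04). The table gives TM7SF2 a locus shared by 5 genes, so reads of overlapping transcripts could be shared between them. EBP, the sterol isomerase, had 69.8 and 5.12 FPKM, a log2 ratio of 3.74. These 3 were set together after their values were seen. With IMP1 each of the 3 stood above FDFT1, and with IgG each was below FDFT1, SQLE, INSIG1, IDI1 and HMGCS1.

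Several other late enzymes lay nearer to FDFT1 and SQLE. MSMO1 and SC5D, both sterol oxidases, had 20.9 and 15.2 FPKM with IMP1 and 18.5 and 18.4 FPKM with IgG, log2 ratios of 0.18 and -0.27. CYP51A1, lanosterol demethylase, had 14.5 and 24.9 FPKM, a log2 ratio of -0.78. ERG28, a scaffold of the demethylation enzymes, had 14.5 and 13.1 FPKM, a log2 ratio of 0.15. NSDHL, a sterol dehydrogenase, lay at the 2-fold limit with 3.45 and 7.02 FPKM, 2.03-fold lower with IMP1. LBR, the lamin B receptor, which is also a sterol C14 reductase like TM7SF2, went the other way from TM7SF2 with 8.11 and 26.4 FPKM, a log2 ratio of -1.69. HSD17B7 had 2.48 FPKM with IMP1 and was listed at 0 with IgG, as were 27.5% of the 3071 other genes near its level.

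Grouped by stage, the 8 enzymes before squalene had a median log2 ratio of 0.77 and the 14 from squalene on of 0.17. At least 2-fold higher were 3 of 8 and 6 of 14, beside 39.9% of all genes. Among the enzymes above the filter of 1 FPKM in both, the medians by stage were 0.19 over 6 and 0.02 over 12 enzymes. By place, the 7 soluble enzymes had a median of 0.91 and the 15 in the endoplasmic reticulum membrane of 0.15. With the same filter the medians by place were 0.63 over 5 and -0.11 over 13 enzymes. These groups are small, overlap in their values and have no test.

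The standing of each gene within its own library gives a comparison without a scale between libraries. As a percentile of the FPKM value among all 18781 genes, DHCR7 was at 97.4 with IMP1 and 86.3 with IgG, and FDPS at 94.5 and 84.3. HMGCS1 went the other way, from 89.4 with IgG to 73.1 with IMP1. FDFT1 (96.6 with IMP1 and 94.4 with IgG), SQLE (94.5 and 91.9), IDI1 (91.5 and 91.4) and INSIG1 (90.0 and 91.8) stood close to each other in both. In all, 6 of the 8 genes had the higher percentile with IMP1, as had 13 of the 15 other enzymes, 50.3% of all genes and 45.5% of those that reach 1 FPKM in both. All genes listed at 0 with IgG share the same low percentile there, so the values of LSS, ACAT2 and HSD17B7 on this scale are set by that tie.

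**Figure D3:**
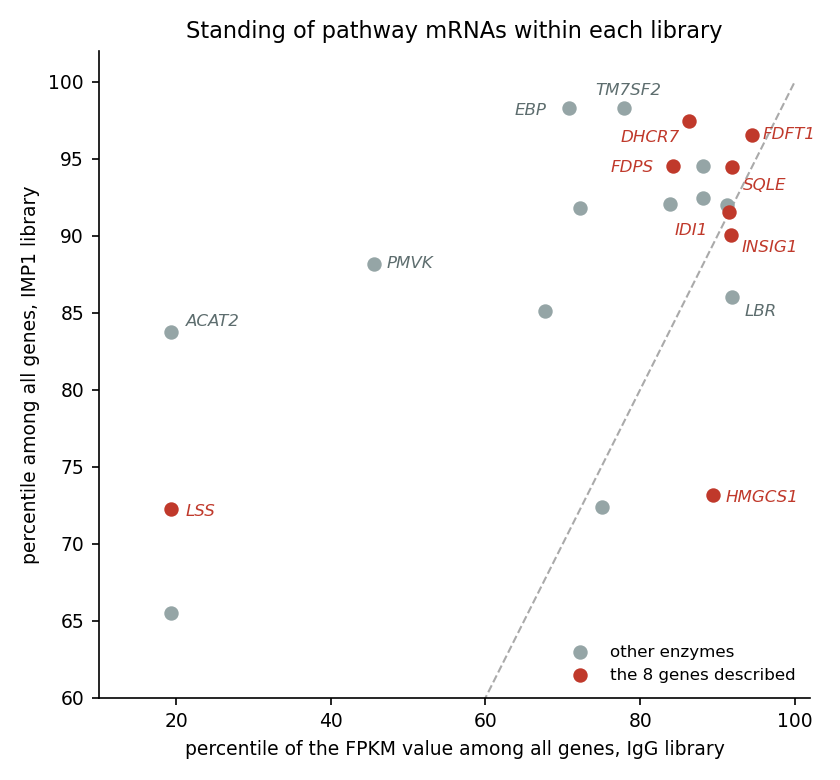
Percentile of each pathway gene's FPKM among all genes of the IMP1 library against the IgG library, 1 library each, with the 8 genes in red and 13 other enzymes in grey and a dashed line of equal percentiles (the axes cover different ranges). HMGCS1 lies below the line at 73.1 against 89.4, DHCR7 lies above it at 97.4 against 86.3, and the points at the left edge are genes listed at 0 with IgG.

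The direction of several of these genes depends on how the IMP1 library is scaled. Setting the median log2 ratio to 0, over genes that reach 1 FPKM in both, is a shift of 0.79, equal FPKM sums without the 50 highest genes of each library a shift of 0.57, and equal FPKM sums a shift of 1.88. The share of higher genes among all genes past 2-fold was 57.2% as deposited and 69.9%, 66.4% and 83.1% under these scales. HMGCS1 was lower with IMP1 under all 4 scales, at log2 ratios of -2.49 as deposited, -1.71 at the median gene and -0.64 at equal sums, where it was no longer past 2-fold. DHCR7 was at least 2-fold higher under all 4, between 1.51 and 3.38, and FDPS was higher under all 4, between 0.63 and 2.50. INSIG1 was -0.37 at the median gene and 0.71 at equal sums, so its direction turned there, and IDI1 went from -0.85 to -0.06 and 1.02. SQLE and FDFT1, below 0 as deposited, were above 0 under each of the other scales, at 0.43 and 0.69 at the median gene. As a share of the FPKM sum, the 8 genes made up 0.0432% of the IMP1 library and 0.0126% of the IgG library.

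**Figure D4:**
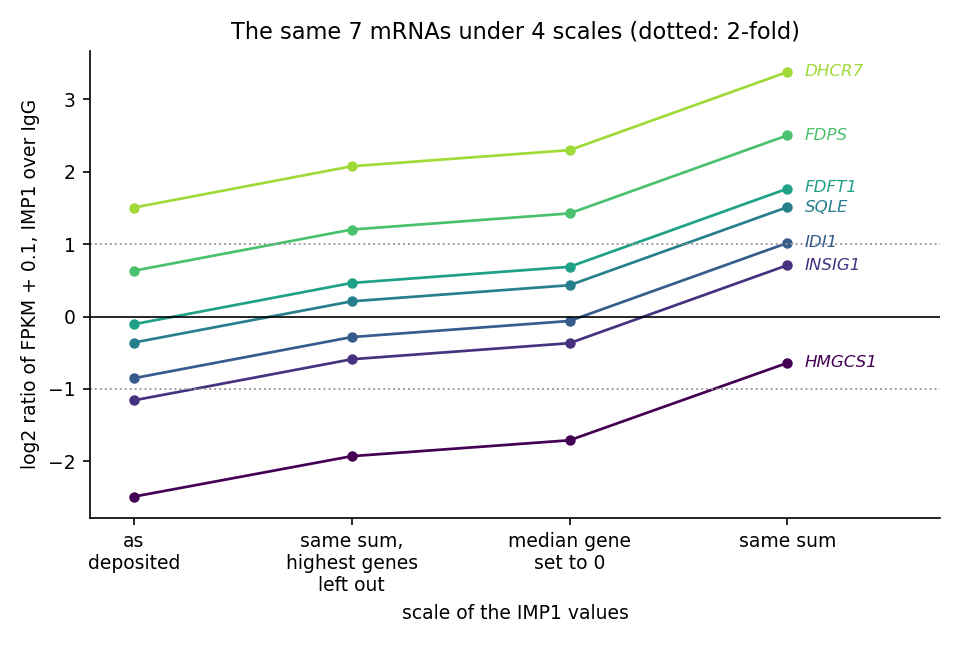
Log2 ratio of FPKM + 0.1, IMP1 over IgG, of the 7 genes above 0 in both libraries, under 4 scales of the IMP1 values (lines join values of the same gene, dotted lines mark 2-fold). The order of the genes is the same under each scale, DHCR7 is above the upper dotted line throughout, and INSIG1 is above 0 at equal sums alone (0.71).

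Among genes that sense sterol, SREBF1, which encodes SREBP1, had 21.3 FPKM with IMP1 against 2.46 FPKM with IgG (log2 ratio 3.07). SREBF2, which encodes SREBP2, the main factor of the cholesterol enzymes, had 7.78 and 4.28 FPKM, a log2 ratio of 0.85. SCAP had 7.77 and 6.39 FPKM, a log2 ratio of 0.28. Of the 12 genes of this list 4 were at least 2-fold higher, namely SREBF1, INSIG2, the site-1 protease MBTPS1 (32.9 and 12.6 FPKM) and the ubiquitin ligase RNF139 (12.7 and 3.94 FPKM). The 2 at least 2-fold lower included the ubiquitin ligase RNF145, with 4.09 and 35.5 FPKM, which stayed below 0 under every scale. The shares over all genes were 39.9% higher and 29.9% lower. The median of the list was 0.68, and 0.52 over the 11 genes that reach 1 FPKM in both.

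Genes of cholesterol uptake, transport and efflux had a median log2 ratio of 0.08 over 13 genes, and 1 further gene of the list was not analysed here. Of these, 5 were at least 2-fold higher with IMP1 and 4 at least 2-fold lower, beside 39.9% and 29.9% of all genes. Of the 8 that reach 1 FPKM in both, 1 was higher and 3 were lower, with a median of -0.58, beside 11.5% and 44.0% of all such genes. The higher ones included NR1H3, a sterol-activated receptor (3.54 and 0.704 FPKM), and STARD3 and NR1H2, which had 8.69 and 4.54 FPKM with IMP1 and were, like the ubiquitin ligase MYLIP, listed at 0 with IgG. Of the 4 lower genes, STARD4, a sterol carrier, had 2.81 and 11.1 FPKM, and LIPA, the lysosomal lipase that frees cholesterol from its esters, had 14.4 and 44.0 FPKM. ABCG1 and ABCA1, which export cholesterol, were at or under 3.19 FPKM in both libraries. NPC2, which binds cholesterol in lysosomes, was the highest of the list, with 101 and 121 FPKM.

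Genes whose pair of values lay nearest to the medians of the 8 genes (17.0 FPKM with IMP1 against 22.7 FPKM with IgG on the log scale) were LYPLA1, PDIA6, LSM7, RBBP4 and LEPROTL1. Their values were between 15.9 and 17.6 FPKM with IMP1 and between 21.4 and 23.6 FPKM with IgG. This likeness is over 2 values only.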

How the data were processed

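Per the labels, RNA was extracted from IMP1 and IgG precipitates of T47D lysate and sequenced, with reads placed on hg19. The methods and the labels differ on the length of the bead incubation. The authors deposited FPKM per gene, with exact zeros written as 1e-05, which were read as 0. The aligner, the software behind the FPKM and the annotation are not given in the sources used here. Values above 0 but under 1e-05 (346 with IMP1, 228 with IgG) were kept. The table's locus, shared by overlapping genes, was read as counting its start from 0, so 1 was added. The deposited fold changes, p-values and q-values, and 3 files of the authors' calls, were not used.

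The log2 ratio of FPKM + 0.1 was computed for 18781 genes. Genes past 2-fold were counted and no test was run. The 8 genes and the lists (rest of synthesis, sterol sensing, uptake and efflux, fatty acid synthesis, isoprenoid branch, paralogs, and luminal, mesenchymal, blood and liver markers) were chosen with earlier results of these data known. Genes named are the 8, the rest of synthesis, the paralogs, SREBF1, SREBF2, SCAP, genes sharing a locus with one of the 8, the 5 nearest pairs, and of each other pathway list the 2 largest and 2 smallest ratios among genes that reach 1 FPKM with either antibody. Others were named after their values were seen. Some listed genes count in their lists but are not reported here by name or plotted. The symbols of 2 pathway genes matched no row and are not analysed here. Alternatives were other pseudocounts (1 and 0.01), filters, scales and a 4-fold limit. The counting was tested on simulated data. Scripts ran in Python 3.11.15 with pandas 2.3.3 and numpy 2.4.6 for tables, scipy 1.17.1 for ranks and matplotlib 3.10.9 for plots.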

Additional observations from a re-analysis of the deposited data

How the results depend on the processing

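No paired analysis was possible because each condition has 1 library, and for the same reason none could be left out. Where counts moved with a filter, threshold or scale, the alternative's own construction sets the change. Of the 8 genes, 2 were at least 2-fold higher and 2 lower. The higher count became 1 with a filter of at least 1 FPKM or above 0 in both libraries, which drops LSS, and 1 at 4-fold, which leaves LSS alone. It became 3 at the median gene, 3 at equal sums without the highest genes and 6 at equal sums. Beside these stood 49.3%, 46.3% and 63.7% of all genes. The lower count became 1 at the median gene, 1 at equal sums without the highest genes, 0 at equal sums and 1 at 4-fold, in each case but equal sums HMGCS1 alone. The median log2 ratio of the 8 genes, -0.23, became 0.56 at the median gene, 1.64 at equal sums and 0.34 without the highest genes, and INSIG1 turned to 0.71 at equal sums. In the rest of synthesis, 7 higher became 4 with at least 1 FPKM in both and 13 of 15 at equal sums, beside 63.7% of all genes. Its 2 lower genes became 1 with a pseudocount of 1, 1 at equal sums without the highest genes, and 0 at the median gene, at equal sums and at 4-fold. Its median of 0.91 became 0.17 or 0.18 with the filters (0.165 with at least 1 FPKM), 1.70 at the median gene and 2.77 at equal sums. The other pseudocounts moved none of the log2 ratios of the 7 genes above 0 in both by 1.5-fold or more. A filter only keeps or drops a gene, so it cannot move these ratios. That of LSS is set by the pseudocount and is not given. With unknown depth, values near 0 have no interval.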

Other observations

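SREBP1 is known to drive genes of fatty acid synthesis beside those of cholesterol. Of 9 such genes (1 further gene of the list was not analysed here), 4 were at least 2-fold higher with IMP1 and 4 at least 2-fold lower, with a median log2 ratio of 0.10, beside 39.9% and 29.9% of all genes. Of the 7 that reach 1 FPKM in both, 2 were higher and 4 lower, with a median of -1.56, beside 11.5% and 44.0% of all such genes. The higher genes included the desaturase SCD, with 141 FPKM with IMP1 and 49.7 FPKM with IgG, FADS1 (9.67 and 3.21 FPKM) and the elongase ELOVL6 (6.57 and 0.420 FPKM), while FADS2 had 6.55 FPKM with IMP1 and was listed at 0 with IgG. The lower genes were ACLY, which makes cytosolic acetyl-CoA (6.86 and 21.3 FPKM), ACSS2 (4.27 and 12.8 FPKM), ACACA, the acetyl-CoA carboxylase (4.74 and 15.3 FPKM), and the elongase ELOVL5 (19.8 and 105 FPKM). FASN, fatty acid synthase, had 7.38 and 6.87 FPKM. ELOVL5 stayed below 0 under every scale, while ACLY, ACSS2 and ACACA turned above 0 at equal sums (0.24, 0.29 and 0.18 on the log2 scale).

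The branch that uses farnesyl diphosphate for prenyl groups, dolichol and ubiquinone had 6 of 14 genes at least 2-fold higher, 6 at least 2-fold lower and a median log2 ratio of -0.23. Of the 10 that reach 1 FPKM in both, 2 were higher and 6 lower, with a median of -1.29, and 3 of the higher genes were listed at 0 with IgG. The shares over all genes are those given above. Subunits of the same prenyltransferase lay on opposite sides in some pairs of the list. FNTA, the shared subunit of farnesyltransferase, had 6.73 FPKM with IMP1 and 32.4 FPKM with IgG, whereas its partner FNTB had 4.20 FPKM with IMP1 and was listed at 0 with IgG. RABGGTB had 7.71 and 45.4 FPKM, whereas its partner RABGGTA had 1.92 FPKM with IMP1 and was listed at 0 with IgG. PGGT1B, the partner of FNTA in a second prenyltransferase, had 5.06 and 2.28 FPKM, a log2 ratio of 1.11, and so also lay opposite to FNTA. Other pairs of the list, DHDDS with NUS1 and PDSS1 with PDSS2, lay on the same side as deposited. DHDDS and NUS1 were both lower with IMP1 (log2 ratios -2.15 and -0.70). PDSS1 (1.48 FPKM with IMP1, listed at 0 with IgG) and PDSS2 (1.45 and 0.287 FPKM) were both higher. FNTA and RABGGTB stayed below 0 under every scale (-0.39 and -0.68 at equal sums). The table gives FNTA a locus shared by 4 genes, FNTB one shared by 6 and RABGGTB one shared by 3. With 1 library per condition, none of these differences was tested.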
